A study of Cavia porcellus with 44 samples.

Results

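Molecular chaperones and the genes of endoplasmic reticulum (ER) stress were followed in the liver of guinea pigs on feeds that differed in fat and vitamin C (vitC). The set was defined by gene symbol, with earlier results of these data known: heat shock proteins, J-domain proteins (DNAJ), protein disulfide isomerases (PDIA), SEC61 translocon subunits, activating transcription factors (ATF), eIF2α kinases (EIF2AK) and 8 further named ER stress genes. Of the 7747 symbols in the normalized table, 48 met the rule, and all 48 had enough counts to be tested. A further 8 matching symbols had fewer than 200 counts over all animals and were not members. Among these, PDIA2, the pancreatic disulfide isomerase, reached 40 counts in an HFL/HFL animal, 22 in an HFH animal and 21 in an HFL/HFH animal, whereas its highest count in the low fat groups was 6. HSPB9 instead reached 33 counts in an LFH animal, against 16 in HFH, 10 in HFL/HFH, 7 in HFL/HFL, 5 in HFL/LFH and 4 in HFL/LFL. These highest counts are not scaled for depth, and neither gene was tested.

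Liver RNA was sequenced from 44 female Hartley guinea pigs after 32 weeks on feed. The low fat-high vitC control group (LFH, n = 8) received 3.8% fat and 2000 mg vitC/kg throughout, and the high fat-high vitC group (HFH, n = 8) received 20% fat, 0.35% cholesterol, 15% sucrose and the same vitC. All other animals were kept for 16 weeks on the high fat feed with only 50 mg vitC/kg (HFL), a period meant to induce steatohepatitis, and then for 16 weeks on 1 of 4 feeds: the same feed (HFL/HFL, n = 10), high fat with 2000 mg vitC/kg (HFL/HFH, n = 6), low fat with 50 mg vitC/kg (HFL/LFL, n = 6) or low fat with 2000 mg vitC/kg (HFL/LFH, n = 6). Fat, cholesterol and sucrose changed together, and low fat groups were pair-fed, so that these cannot be told apart.

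Chaperones bind unfolded proteins and help them reach or keep their fold. In the ER lumen of hepatocytes, which secrete most plasma proteins, HSPA5 (BiP), HSP90B1, the lectins calnexin and calreticulin and the disulfide isomerases fold proteins that enter through the SEC61 channel. When unfolded proteins build up there, the kinase EIF2AK3 (PERK) slows translation and raises ATF4, DDIT3 (CHOP) and ATF3, and other sensors raise the chaperones themselves. EIF2AK4 (GCN2) reaches the same ATF4 branch when amino acids are scarce. In the cytosol, heat and other proteotoxic stress raises HSPA1A, DNAJB1 and HSPH1, while HSPA8 and HSP90AB1 are present in unstressed cells.

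Libraries held 21133807 to 35427724 counts, and 3 counts corresponded to 0.0626 to 0.170 CPM (library-scaled counts per 1e6 counts). Albumin and SERPINA1, the hepatocyte markers tested, summed to a median of 151234 CPM in LFH and 62028 CPM in HFH, with 169578 in HFL/LFH against 51677 in HFL/HFH and 132546 in HFL/LFL against 53331 in HFL/HFL. Over the same pairs the cholangiocyte sum (KRT7, KRT19 and EPCAM) had medians of 241 and 805, 195 and 815, and 197 and 763 CPM, and the stellate cell sum medians of 457 and 1372, 394 and 1022, and 527 and 1068 CPM. The part of these shifts in the feed results was not tested, and in bulk tissue fewer cells of a type and less RNA per cell cannot be told apart. HSPA1A and HSPA1B had identical counts in every animal and are described as HSPA1A, HSPBP1 shared all its counts with SYT5, and HSPE1.MOB4 shared all its counts with MOB4, so that these values cannot be given to 1 gene of each pair. HSPA5 below is the row HSPA5.1. The core ER stress genes XBP1, ERN1, HERPUD1, HYOU1, TRIB3 and ATF6, and the mitochondrial chaperonins HSPD1 and HSPE1, were not analysed here.

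Feed fat was compared in 3 pairs of groups that share no animals, and the animals of the last 2 pairs, which began on the HFL feed, are called HFL-start. In HFH over LFH, 10 members were higher and 11 lower at adjusted p under 0.05 (edgeR's quasi-likelihood test, Benjamini-Hochberg over 7750 symbols), which is 43.8% of the set, and 49.3% of all symbols tested were called (27.7% higher and 21.7% lower). In HFL/HFH over HFL/LFH, 6 were higher and 8 lower, or 29.2% against 35.9% of all symbols (19.4% higher and 16.5% lower). In HFL/HFL over HFL/LFL, 8 were higher and 16 lower, or 50% against 37.8% of all symbols, and the lower calls made up 33.3% of the set against 18.1% of all symbols (19.7% were higher). These counts hold both HSPA1A and HSPA1B, and with shared counts taken once 20, 13 and 24 members were called. The median log2 fold change of the members was -0.10, -0.03 and -0.19 in these pairs, and that of all symbols was 0.06, 0.01 and 0.03. With limma voom the calls in HFL/HFH over HFL/LFH were 19 rather than 14 (45.4% of all symbols were called by it), CANX, DNAJA3, DNAJB9, HSPA9 and HSPB1 being added. Members moved in both directions in each pair, and they are described by role, with calls by edgeR's test unless another is named.

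**Figure D1:**
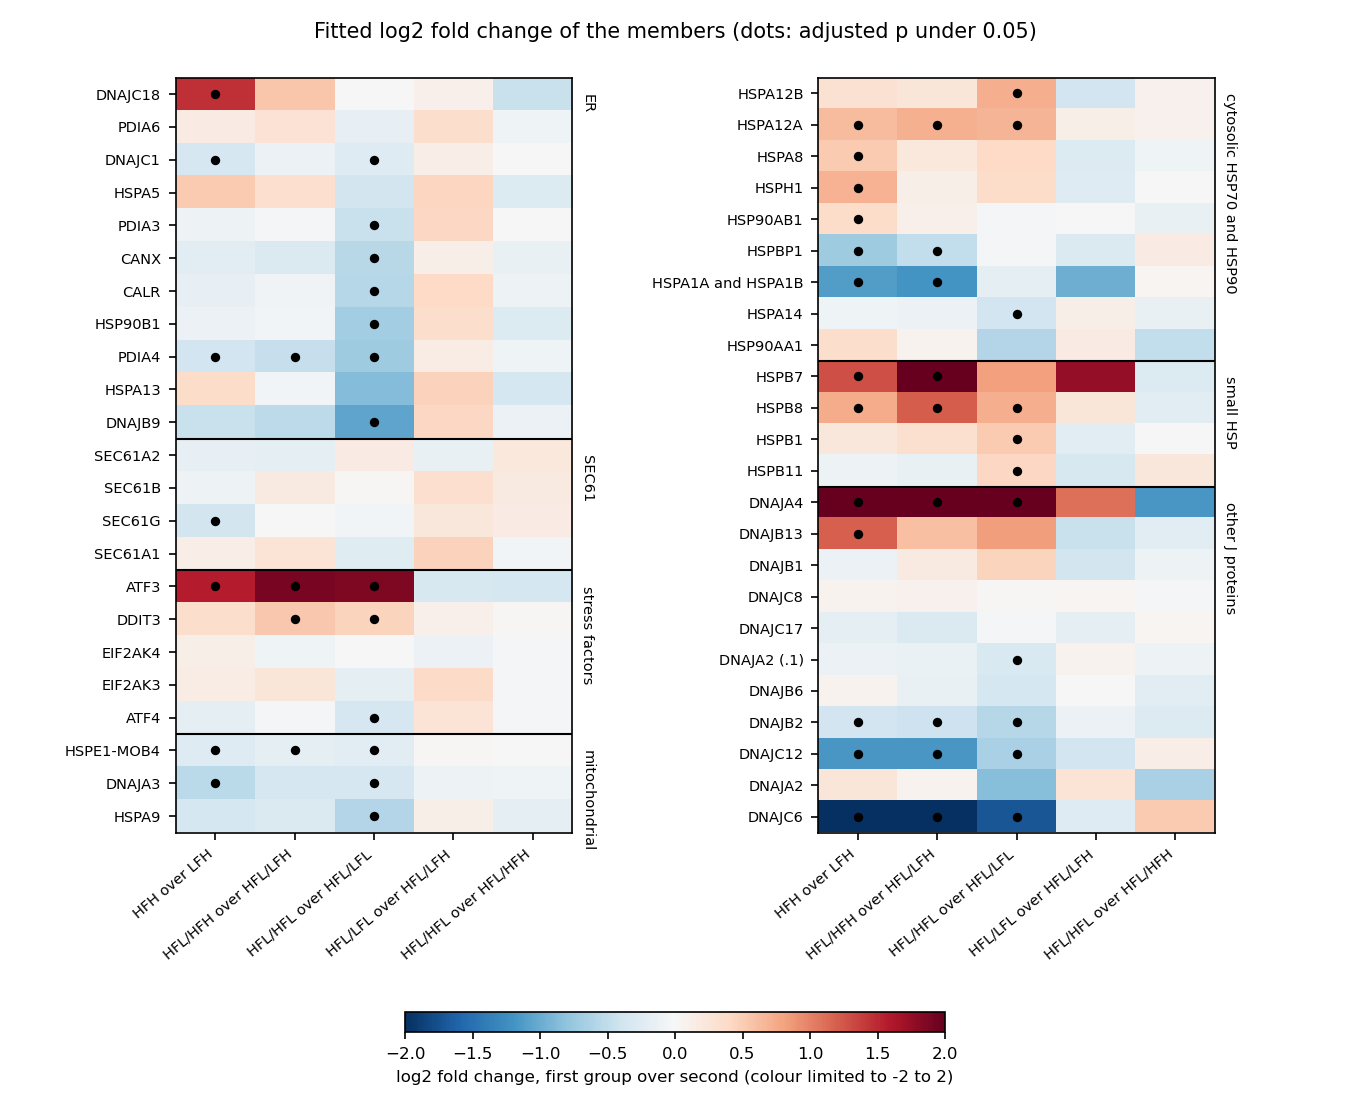
Fitted log2 fold changes (colour, limited to -2 to 2, red for higher in the first group named) of the 47 members with distinct counts, grouped by role, in the 3 feed comparisons and the 2 vitC comparisons among HFL-start animals. Dots mark adjusted p under 0.05. ATF3 is dotted in all 3 feed columns, the blue ER block is dotted mainly in HFL/HFL over HFL/LFL, and the vitC columns hold no dots.

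Calls among the ER members were most numerous in HFL/HFL over HFL/LFL. There 3 were called lower without 2 HFL/LFL animals described below, and the interaction of vitC and feed, also given below, was called for no member. With all animals, the 11 ER members had negative log2 fold changes in that pair with a median of -0.55. Of them, 7 were called lower and none higher, where 18.1% of all symbols were lower and 19.7% higher. In HFH over LFH, 1 of the 11 was higher and 2 were lower with a median of -0.11 (27.7% of all symbols higher and 21.7% lower). In HFL/HFH over HFL/LFH 1 was lower with a median of -0.06 (19.4% of all symbols higher and 16.5% lower).

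HSP90B1, the HSP90 of the ER lumen, ranged from 828 to 1257 CPM in HFL/HFL (median 1030) and from 1124 to 2455 CPM in HFL/LFL (median 1718). The ranges overlapped between 1124 and 1257 CPM, and the log2 fold change was -0.69 (SE 0.15, adjusted p = 0.000265). In the other pairs the HSP90B1 medians lay close together, at 1180 CPM in HFH and 1252 in LFH (log2 fold change -0.11, adjusted p = 0.550) and at 1302 in HFL/HFH and 1365 in HFL/LFH (-0.06, adjusted p = 0.804). DNAJB9, the J protein that partners HSPA5, had the steepest ER difference in HFL/HFL over HFL/LFL. Its CPM ran from 41.0 to 119 in HFL/HFL (median 75.4) and from 106 to 318 in HFL/LFL (median 126), a log2 fold change of -1.06 (SE 0.20, adjusted p = 5.06e-05). For HFH over LFH it was -0.44 (adjusted p = 0.0606) and for HFL/HFH over HFL/LFH -0.53 (adjusted p = 0.0687). The first was called by DESeq2 (adjusted p = 0.0490) and with only the groups compared (adjusted p = 0.00683), and the second by limma voom (adjusted p = 0.0120) and with only the groups compared (adjusted p = 0.0287).

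PDIA4, a disulfide isomerase, was the ER member called lower on high fat feed in all 3 pairs. It had medians of 510 CPM in HFH (359 to 653) and 649 in LFH (517 to 820), 513 in HFL/HFH (364 to 596) and 729 in HFL/LFH (509 to 865), and 473 in HFL/HFL (336 to 639) and 744 in HFL/LFL (505 to 1095). The ranges overlapped in each pair. The log2 fold changes were -0.38 (SE 0.15, adjusted p = 0.0300), -0.47 (SE 0.17, adjusted p = 0.0293) and -0.70 (SE 0.15, adjusted p = 0.000269). The call was lost in 7 of 16 fits of HFH over LFH that left out 1 animal (adjusted p up to 0.0743 without HFH animal 88) and in 6 of 12 such fits of HFL/HFH over HFL/LFH (up to 0.0851 without HFL/HFH animal 30), and the HFH over LFH call also with upper quartile scaling and with limma voom.

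The lectin chaperones and their isomerase were called lower in HFL/HFL over HFL/LFL. Calreticulin (CALR), which binds calcium and immature glycoproteins, had a median of 1232 CPM in HFL/HFL (1000 to 1980) and 2152 CPM in HFL/LFL (999 to 2696), a log2 fold change of -0.57 (SE 0.18, adjusted p = 0.0116). Its membrane-bound relative calnexin (CANX) gave -0.55 (SE 0.18, adjusted p = 0.0124) and PDIA3, the isomerase that works with both lectins, gave -0.45 (SE 0.14, adjusted p = 0.0114). None of these genes was called by edgeR's test in the other pairs, where limma voom called CANX in HFL/HFH over HFL/LFH (-0.43, adjusted p = 0.0397). The HFL/LFL range of CALR reached as low as that of HFL/HFL, and without HFL/LFL animal 13 its adjusted p was 0.0520, while that of PDIA3 was 0.0848 without HFL/LFL animal 49. DNAJC1, an ER membrane J protein, was lower in HFH (-0.34, adjusted p = 0.00167) and in HFL/HFL (-0.26, adjusted p = 0.0233) and gave -0.12 (adjusted p = 0.384) in HFL/HFH over HFL/LFH. Its call in HFL/HFL was lost without HFL/LFL animal 49, without animal 53, and with only the groups compared, and without both animals the value was -0.11 (adjusted p = 0.435).

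HSPA5, the main HSP70 of the ER and a standard readout of ER stress, was called in none of the 3 pairs by edgeR's quasi-likelihood test. Its lowest, median and highest CPM were 540, 673 and 930 in LFH, 621, 900 and 1753 in HFH, 404, 746 and 935 in HFL/LFH, 462, 835 and 1442 in HFL/HFH, 514, 781 and 1595 in HFL/LFL, and 420, 667 and 1123 in HFL/HFL. All 6 ranges overlapped. The log2 fold changes were 0.52 (95% interval 0.03 to 1.02, adjusted p = 0.0741) for HFH over LFH, 0.34 (-0.23 to 0.91, adjusted p = 0.374) for HFL/HFH over HFL/LFH and -0.37 (-0.87 to 0.14, adjusted p = 0.257) for HFL/HFL over HFL/LFL. In HFH over LFH the row HSPA5.1 was called higher with upper quartile scaling (0.58, adjusted p = 0.0384) and with limma voom (0.60, adjusted p = 0.0200). PDIA6, which binds HSPA5, was likewise not called, at 0.17 (adjusted p = 0.278), 0.29 (adjusted p = 0.120) and -0.17 (adjusted p = 0.318). DNAJC18 was the ER member called higher, at 0.199 to 1.72 CPM in LFH and 0.42 to 3.54 in HFH (log2 fold change 1.46, SE 0.41, adjusted p = 0.00328), but its levels were under 4 CPM in every animal.

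**Figure D2:**
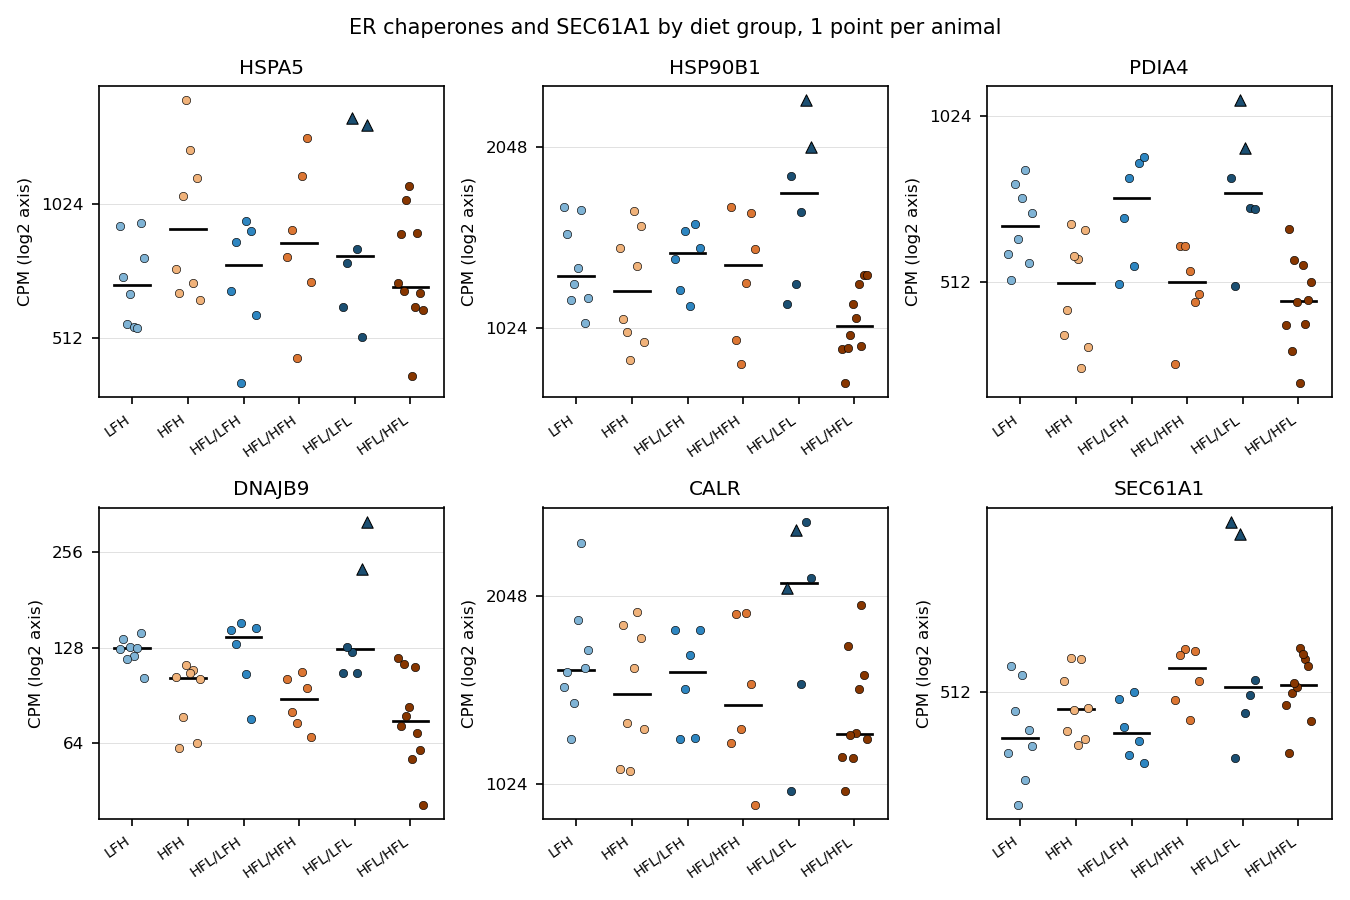
CPM of HSPA5, HSP90B1, PDIA4, DNAJB9, CALR and SEC61A1 in each animal by group (log2 axis, bar at the group median, triangles for HFL/LFL animals 49 and 53). The triangles are the highest HFL/LFL points for HSPA5, at 1595 and 1539 CPM, above the other 4 animals at 514 to 809 CPM.

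Among the HFL/LFL animals, numbers 49 and 53 had the highest levels of several ER genes together. HSPA5 was at 1595 and 1539 CPM in them and at no more than 809 in the other 4 animals, DNAJB9 was at 318 and 226 CPM against 106 to 129, and HSP90B1 was at 2455 and 2051 CPM against 1124 to 1834. CALR was highest in animal 13, at 2696 CPM, ahead of animal 49 at 2618 CPM. Without both animals, an alternative chosen after seeing the data that lowers the difference by construction, 3 of the 11 ER members were called lower and 9 of 11 had negative values, with a median of -0.40. DNAJB9 then gave -0.53 (adjusted p = 0.0327), HSP90B1 -0.45 (adjusted p = 0.0303) and PDIA4 -0.49 (adjusted p = 0.0221), while CALR (-0.44, adjusted p = 0.110), CANX (-0.47, adjusted p = 0.0763) and PDIA3 (-0.20, adjusted p = 0.343) were no longer called. Over all 48 members the calls fell from 24 to 11, of which 9 were among the 24, while the share of all symbols called fell from 37.8% to 27.8%. HSPA5 (row HSPA5.1) then gave 0.17 (adjusted p = 0.680) and PDIA6 0.04 (adjusted p = 0.883), so that both changed sign. Outside the ER, with 4 HFL/LFL animals left, calls were lost at log2 fold changes close to those with all animals for DDIT3 (0.43 against 0.45), HSPB11 (0.39 against 0.41), DNAJA3 (-0.31 against -0.33), HSPA12A (0.61 against 0.68), HSPA12B (0.66 against 0.72) and HSPE1.MOB4 (-0.19 against -0.23). The values of the other lost calls were -0.49 against -0.59 for HSPA9, 0.41 against 0.52 for HSPB1, -0.19 against -0.30 for DNAJA2.1 and -0.11 against -0.34 for ATF4, and DNAJA4 was lost too. HSPA8 (0.67, adjusted p = 0.0303) and HSPH1 (0.80, adjusted p = 0.0278) were gained.

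The SEC61 channel, through which new proteins enter the ER, held 4 members: the pore subunits SEC61A1 and SEC61A2 and the small subunits SEC61B and SEC61G. A single feed call was made among them, with SEC61A2 added by limma voom in HFH over LFH. SEC61G ranged from 60.1 to 97.5 CPM in HFH (median 72.4) and from 73.9 to 129 in LFH (median 89.9), overlapping ranges with a log2 fold change of -0.36 (SE 0.11, adjusted p = 0.00422), and gave 0.00 (adjusted p = 0.986) and -0.06 (adjusted p = 0.720) in the other pairs. SEC61A1 was the member called higher in HFL/LFL than in LFH, with 408 to 926 CPM (median 521) against 346 to 561 (median 437) and a log2 fold change of 0.47 (SE 0.13, adjusted p = 0.0225). Animals 49 and 53 held 926 and 887 CPM and the other HFL/LFL animals at most 535, within the LFH range. The adjusted p rose to 0.156 without animal 49 and to 0.750 without both.

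Of the stress signalling members, ATF3 changed with feed fat in all 3 pairs. ATF3 is an immediate stress-induced transcription factor and a target of ATF4. Its lowest, median and highest CPM were 37.8, 54.6 and 80.1 in LFH and 98.5, 181 and 208 in HFH, without overlap, a log2 fold change of 1.57 (SE 0.27, adjusted p = 5.00e-06). In the HFL-start animals it ranged from 30.9 to 128 CPM in HFL/LFH (median 51.2) and from 90.8 to 453 in HFL/HFH (median 210), with a log2 fold change of 1.89 (SE 0.31, adjusted p = 5.39e-06). HFL/LFH animal 43, at 128 CPM, overlapped with the HFL/HFH animals. On low vitC, ATF3 lay between 26.8 and 105 CPM in HFL/LFL (median 45.5) and between 125 and 305 in HFL/HFL (median 197), again without overlap (log2 fold change 1.87, SE 0.29, adjusted p = 2.78e-06). The 3 feed calls of ATF3 held in every fit that left out 1 animal. Groups without overlap were seen for 3 members in HFH over LFH, 5 in HFL/HFH over HFL/LFH and 2 in HFL/HFL over HFL/LFL, against 16.9%, 16.2% and 9.90% of all symbols.

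DDIT3, which encodes the pro-apoptotic factor CHOP, was higher in HFL/HFH than in HFL/LFH and in HFL/HFL than in HFL/LFL, with smaller differences than ATF3. Its medians were 35 CPM in HFL/HFH (30.3 to 55.5) and 24.8 in HFL/LFH (19.2 to 35.3), overlapping ranges with a log2 fold change of 0.53 (SE 0.20, adjusted p = 0.0364), and 38.7 in HFL/HFL (28.6 to 52) and 28.4 in HFL/LFL (15 to 40.5), with 0.45 (SE 0.18, adjusted p = 0.0490). In HFH over LFH it gave 0.35 (adjusted p = 0.0917, and 0.0451 with upper quartile scaling). Leaving out 1 animal ended the call in 5 of 12 fits of the first pair (adjusted p up to 0.146 without HFL/HFH animal 84) and in 10 of 16 of the second (up to 0.172 without HFL/LFL animal 13). The second call was also lost with RLE scaling (adjusted p = 0.0549) and with no filter on low counts (adjusted p = 0.0588).

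ATF4 itself, which is controlled mainly at translation, did not rise with feed fat. It gave -0.19 (adjusted p = 0.178) in HFH over LFH and -0.03 (adjusted p = 0.901) in HFL/HFH over HFL/LFH, and it was lower in HFL/HFL, at 358 to 465 CPM (median 441), than in HFL/LFL, at 359 to 765 (median 531), with a log2 fold change of -0.34 (SE 0.12, adjusted p = 0.0176). That call was lost with limma voom (adjusted p = 0.0555), without HFL/LFL animal 49 (0.130) and without animals 49 and 53 together (0.528). Neither eIF2α kinase was called in any pair. EIF2AK3 gave 0.14 (adjusted p = 0.536), 0.24 (0.409) and -0.20 (0.427), and EIF2AK4 gave 0.12 (0.300), -0.09 (0.556) and 0.01 (0.972).

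**Figure D3:**
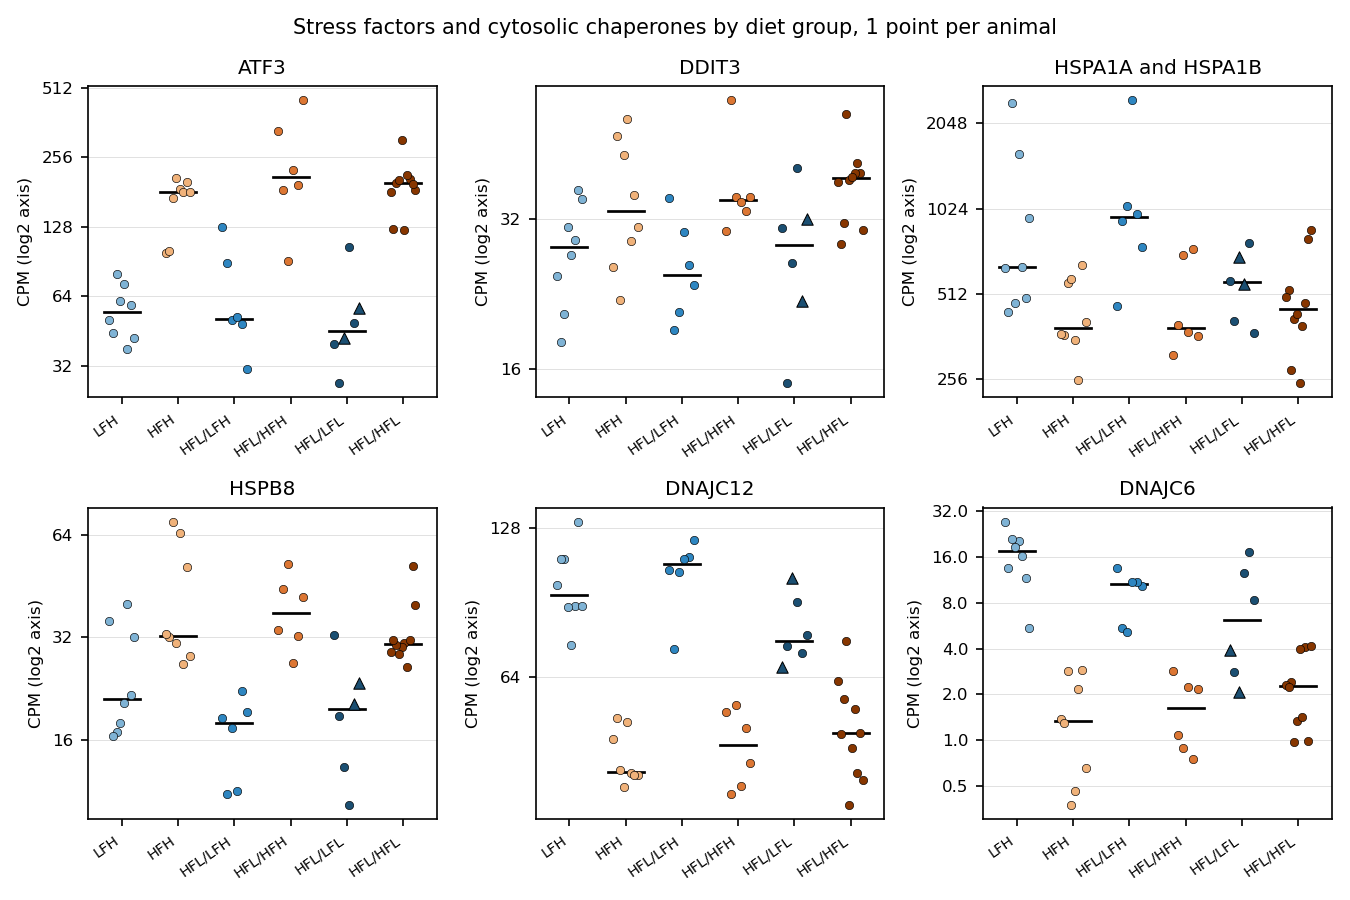
CPM of ATF3, DDIT3, HSPA1A (with HSPA1B), HSPB8, DNAJC12 and DNAJC6 in each animal by group (log2 axis, bar at the group median, triangles for HFL/LFL animals 49 and 53). DNAJC12 sits between 38.4 and 52.9 CPM in HFH and between 74.1 and 132 CPM in LFH, without overlap.

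The cytosolic HSP70 and HSP90 members moved in both directions. Of the 10, 4 were higher and 3 lower in HFH over LFH, 1 higher and 3 lower in HFL/HFH over HFL/LFH, and 2 higher and 1 lower in HFL/HFL over HFL/LFL. Of all symbols, 27.7% were higher and 21.7% lower in the first pair, 19.4% and 16.5% in the second, and 19.7% and 18.1% in the third. The 3 lower calls of the first 2 pairs were HSPA1A, HSPA1B with the same counts, and the row shared by HSPBP1 and SYT5. The stress-inducible HSPA1A ranged from 254 to 646 CPM in HFH (median 389) and from 440 to 2419 in LFH (median 634), with a log2 fold change of -1.11 (SE 0.32, adjusted p = 0.00327). It ranged from 311 to 736 CPM in HFL/HFH (median 387) and from 465 to 2472 in HFL/LFH (median 953), with -1.20 (SE 0.37, adjusted p = 0.00841). The groups overlapped in both pairs, and single animals stood high, LFH animal 5 at 2419 CPM and HFL/LFH animal 43 at 2472 CPM. The second call was lost without animal 43 (adjusted p = 0.0760). Between HFL/HFL and HFL/LFL the HSPA1A log2 fold change was -0.19 (95% interval -0.84 to 0.46, adjusted p = 0.683).

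The constitutive HSP70 was higher in HFH than in LFH. HSPA8 rose from a median of 721 CPM in LFH (562 to 877) to 1027 in HFH (629 to 1420), a log2 fold change of 0.52 (SE 0.20, adjusted p = 0.0323), and its nucleotide exchange factor HSPH1 from 44.7 CPM (25.7 to 55.1) to 63.5 (43.2 to 100), with 0.69 (SE 0.24, adjusted p = 0.0172). HSP90AB1, the constitutive cytosolic HSP90, gave 0.36 (SE 0.15, adjusted p = 0.0423). Ranges overlapped for all 3 genes, and edgeR's test called none in the HFL-start pairs, where HSPA8 gave 0.22 (adjusted p = 0.508) and 0.40 (adjusted p = 0.137). In HFL/HFL over HFL/LFL limma voom called HSPA8 (0.50, adjusted p = 0.0322), and HSPA8 and HSPH1 were called without animals 49 and 53. The HSPA8 call was lost in 6 of 16 leave-one-out fits (adjusted p up to 0.0805 without HFH animal 1) and that of HSP90AB1 in 10 of 16 (up to 0.0814 without LFH animal 79). HSP90AA1, the inducible cytosolic HSP90, gave 0.35 (adjusted p = 0.281), 0.06 (0.894) and -0.59 (0.0806), the last being called with only the groups compared (adjusted p = 0.0441).

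HSPA12A, an atypical HSP70, was higher on high fat feed in each pair, with log2 fold changes of 0.63 (adjusted p = 0.0217), 0.71 (0.0333) and 0.68 (0.0247). Its group medians were 22.7 to 25.1 CPM in the high fat groups and 13.8 to 17.4 CPM in the low fat groups, with overlapping ranges. These calls were lost in 2 of 16, 6 of 12 and 4 of 16 leave-one-out fits, with adjusted p up to 0.0757 (HFH animal 88), 0.0958 (HFL/HFH animal 30) and 0.0712 (HFL/LFL animal 49), and the first also with limma voom. Its relative HSPA12B, known from endothelium, was called in HFL/HFL over HFL/LFL at 0.72 (adjusted p = 0.0495, up to 0.118 without HFL/HFL animal 75, the call being lost in 11 of 16 fits, and also with RLE scaling, no filter on low counts and limma voom), beside endothelial marker sums with medians of 505 CPM in HFL/HFL and 810 in HFL/LFL, whose part was not tested. The row shared by HSPBP1, an HSP70 exchange factor, and SYT5 was lower in HFH (-0.71, adjusted p = 3.32e-05) and in HFL/HFH (-0.49, adjusted p = 0.0127, and 0.0525 without HFL/LFH animal 33). In HFL/HFL over HFL/LFL this row gave -0.05 (adjusted p = 0.826). HSPA14, a ribosome-associated HSP70, was lower in HFL/HFL (32.1 to 44.1 CPM, median 40.5) than in HFL/LFL (43.1 to 59.9, median 50.6), at -0.38 (SE 0.08, adjusted p = 0.000159), the ranges overlapping only between 43.1 and 44.1 CPM.

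HSPA9 and DNAJA3 act in mitochondria. HSPA9 (mortalin), the mitochondrial HSP70 that pulls proteins into the matrix, ranged from 226 to 385 CPM in HFL/HFL (median 278) and from 302 to 579 in HFL/LFL (median 451), with a log2 fold change of -0.59 (SE 0.17, adjusted p = 0.00590). In HFH over LFH it gave -0.34 (adjusted p = 0.0858) and in HFL/HFH over HFL/LFH -0.29 (adjusted p = 0.259), and without animals 49 and 53 its adjusted p in HFL/HFL over HFL/LFL was 0.0564. Limma voom called HSPA9 lower in HFL/HFH over HFL/LFH too (-0.38, adjusted p = 0.0431). DNAJA3, its J protein, had medians of 115 CPM in HFH (87.3 to 172) and 172 in LFH (139 to 197), overlapping, and a log2 fold change of -0.53 (SE 0.12, adjusted p = 0.000366). In the HFL-start pairs DNAJA3 gave -0.34 (adjusted p = 0.0593) and -0.33 (adjusted p = 0.0346). The row HSPE1.MOB4, whose counts cannot be told apart from those of MOB4, was lower by smaller amounts, at -0.26 (adjusted p = 0.000727), -0.19 (0.0376) and -0.23 (0.00442), and its second call was lost in 6 of 12 leave-one-out fits (up to 0.103 without HFL/LFH animal 43), with upper quartile scaling, with no filter and with only the groups compared.

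Small heat shock proteins hold unfolded proteins without using ATP. Of the 4 members with an HSPB symbol and number, 2 were called higher in HFH over LFH, 2 in HFL/HFH over HFL/LFH and 3 in HFL/HFL over HFL/LFL, the last including HSPB11, which is not a small heat shock protein, and none was called lower. Of all symbols, 27.7%, 19.4% and 19.7% were called higher and 21.7%, 16.5% and 18.1% lower in these pairs. HSPB8, which works with BAG3 in selective autophagy, ranged from 26.8 to 69.9 CPM in HFH (median 32.4) and from 16.5 to 40.1 in LFH (median 21.1), a log2 fold change of 0.74 (SE 0.22, adjusted p = 0.00529). In HFL/HFH it ran from 26.9 to 52.4 CPM (median 37.8) and in HFL/LFH from 11.1 to 22.3 (median 18), without overlap (1.21, SE 0.26, adjusted p = 0.000269). In HFL/HFL over HFL/LFL its ranges overlapped and the log2 fold change was 0.73 (SE 0.24, adjusted p = 0.0127, and 0.0504 without HFL/LFL animal 13).

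HSPB1 (HSP27) was called in HFL/HFL over HFL/LFL, at 316 to 462 CPM in HFL/HFL (median 389) and 172 to 501 in HFL/LFL (median 229), with 0.52 (SE 0.18, adjusted p = 0.0200, and 0.0765 without HFL/LFL animal 13). Limma voom also called it in HFL/HFH over HFL/LFH (0.46, adjusted p = 0.0440). HSPB7, a heart and muscle family member, stayed under 2.5 CPM in every animal. It was higher in HFH (1.29, SE 0.54, adjusted p = 0.0457, lost in 11 of 16 leave-one-out fits, up to 0.104 without HFH animal 47, with no filter and with only the groups compared) and in HFL/HFH, where it ran from 0.459 to 2.40 CPM against 0.0566 to 0.275 in HFL/LFH (2.84, SE 0.68, adjusted p = 0.000970). Muscle marker sums had medians of 165 CPM in HFH and 249 in LFH, and of 153 CPM in HFL/HFH and 159 in HFL/LFH, and their part was not tested. HSPB11, a subunit of the intraflagellar transport complex, gave 0.41 (adjusted p = 0.0277, lost in 3 of 16 leave-one-out fits, up to 0.0682 without HFL/LFL animal 17) in HFL/HFL over HFL/LFL.

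The remaining J proteins included DNAJC6, which had the largest fall among the members called lower in each pair. DNAJC12, which assists the folding of aromatic amino acid hydroxylases such as phenylalanine hydroxylase, ranged from 38.4 to 52.9 CPM in HFH (median 41.2) and from 74.1 to 132 in LFH (median 93.7), a log2 fold change of -1.16 (SE 0.13, adjusted p = 8.02e-10). In HFL/HFH it ran from 37.2 to 56.3 CPM (median 46.7) and in HFL/LFH from 72.9 to 121 (median 108), with -1.16 (SE 0.15, adjusted p = 5.22e-08). Neither pair overlapped. In HFL/HFL (35.3 to 75.7 CPM, median 49.2) and HFL/LFL (67.0 to 101, median 75.7) the ranges did overlap, and the log2 fold change was -0.65 (SE 0.13, adjusted p = 0.000122).

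DNAJC6 (auxilin), which uncoats clathrin vesicles and is best known from neurons, was lower still. It ranged from 0.376 to 2.87 CPM in HFH (median 1.34) and from 5.46 to 27.3 in LFH (median 17.5), without overlap, with a log2 fold change of -3.48 (SE 0.45, adjusted p = 2.16e-08). The range was 0.755 to 2.83 CPM in HFL/HFH (median 1.62) and 5.13 to 13.5 in HFL/LFH (median 10.6), again without overlap (-2.50, SE 0.50, adjusted p = 0.000104). In HFL/HFL it was 0.97 to 4.18 CPM (median 2.27) and in HFL/LFL 2.08 to 17.1 (median 6.15), overlapping (-1.71, SE 0.42, adjusted p = 0.00118). DNAJB2, which delivers proteins to the proteasome, was lower by smaller amounts in all 3 pairs, at -0.38 (adjusted p = 0.000706), -0.42 (0.00187) and -0.57 (5.88e-06), and did not overlap in the HFL-start pairs.

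DNAJA4 was near the limit of detection on low fat feed and higher on high fat feed. It was at 0 to 0.763 CPM in LFH (median 0.0526) and 0 to 10.6 in HFH (median 2.11, adjusted p = 0.000718), and at 0 to 0.235 CPM in HFL/LFH (median 0) and 0 to 7.50 in HFL/HFH (median 2.89, adjusted p = 0.000587). The fitted fold change of such low counts depends on the prior count and is not given. Ranges overlapped, since HFH animal 18 and HFL/HFH animal 20 had no counts. In HFL/LFL it was at most 0.405 CPM and in HFL/HFL 0.0782 to 3.48 (adjusted p = 0.0167). Limma voom did not call DNAJA4 in HFH over LFH or in HFL/HFL over HFL/LFL. DNAJB13, a sperm and cilium J protein, was called in HFH over LFH at 1.19 (adjusted p = 0.0262, and 0.142 without HFH animal 88) on levels under 4 CPM. DNAJA2, under the row DNAJA2.1, was lower in HFL/HFL than in HFL/LFL by a small amount (-0.30, SE 0.08, adjusted p = 0.00227, and -0.19 with adjusted p = 0.0893 without animals 49 and 53). DNAJB1, the J protein of the heat shock response, was called in no pair by the fit of all groups and in HFL/HFL over HFL/LFL when only these groups were fitted.

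The effect of vitC on the members was tested at each feed. In HFL/LFL over HFL/LFH no member was called by edgeR's quasi-likelihood test (0.219% of all symbols), limma voom (0.516%) or DESeq2 (1.03%). An unadjusted p under 0.05 was found for 10 members, or 20.8% of the set against 11% of all symbols, with HSPA1A and HSPA1B both counted. All 11 ER members had positive values, from 0.11 to 0.46 with a median of 0.36, but without HFL/LFL animals 49 and 53 there were 6 positive and 5 negative values with a median of 0.05. The smallest p values belonged to SEC61A1 (0.46, SE 0.14, adjusted p = 0.152), SEC61B (0.33, SE 0.12, adjusted p = 0.219) and HSPA1A (-0.98, SE 0.36, adjusted p = 0.248), and without these animals SEC61A1 gave 0.09 and SEC61B 0.11. In HFL/HFL over HFL/HFH no member was called by the same tools (0.0129% of all symbols with each), and DNAJB2 alone had an unadjusted p under 0.05, with a log2 fold change of -0.28 (adjusted p = 1) although its ranges of 76.6 to 95.1 and 96.0 to 117 CPM did not overlap (0.0258% of all symbols had no overlap there).

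The interaction of vitC and feed, which asks whether the feed difference itself changed with vitC, was called for no member by edgeR's quasi-likelihood test (0% of all symbols), limma voom (0%) or DESeq2 (0.0387%). At an unadjusted p under 0.05 there were 10 members, or 20.8% of the set against 8.23% of all symbols. All 11 ER members had negative interaction terms, with a median of -0.50, and without animals 49 and 53 there were 10 negative terms and the median was -0.19. HSP90B1 had the smallest p, with -0.63 (95% interval -1.09 to -0.18, adjusted p = 0.444, and -0.38 without both animals), followed by SEC61A1 (-0.52, adjusted p = 0.447) and DNAJC12 (0.51, adjusted p = 0.463). The larger ER differences on low vitC feed were not shown to differ from those on high vitC feed.

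The HFL-start groups were also compared with LFH and HFH, whose animals had high vitC throughout. In HFL/LFH over LFH and HFL/HFH over HFH the feed at sampling was the same, whereas HFL/LFL and HFL/HFL also had less vitC at sampling than LFH and HFH, so that in these earlier feed and present vitC cannot be told apart. In HFL/LFH over LFH no member was called by edgeR's quasi-likelihood test (0.361% of all symbols were). An unadjusted p under 0.05 was found for 5 members, or 10.4% of the set, and for 10.4% of all symbols. DNAJB2 was nearest to a call, at 119 to 156 CPM (median 135) in HFL/LFH and 89.7 to 133 (median 104) in LFH (0.39, SE 0.10, adjusted p = 0.0734). DNAJB2 was the member that DESeq2 and upper quartile scaling called there. In HFL/LFL over LFH, SEC61A1 was the call described above (7.91% of all symbols were called, 4.43% higher). Among high fat groups, no member was called in HFL/HFL over HFH (0.271% of all symbols, 7 members or 14.6% at an unadjusted p under 0.05 against 17.3% of all symbols, and 4 members called by limma voom against 7.19%) or in HFL/HFH over HFH (0% of all symbols, 2 members or 4.17% at an unadjusted p under 0.05 against 6.01% of all symbols, and none by limma voom or DESeq2). The smallest p values were those of HSPBP1 with SYT5 (0.38, adjusted p = 0.148) in the first and DNAJB2 (0.35, adjusted p = 0.585) in the second.

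Within groups, the ER members varied together from animal to animal. Each animal's log2 CPM was taken as its deviation from its own group's mean over the 44 animals, and 162 relations to HSPA5, HSPA1A and HSPA8, anchors chosen after their values were seen, were tested by permuting animals within groups (100000 resamples, smallest possible p 1e-05). HSPA5 followed HSP90B1 with Pearson's r = 0.896 and Spearman's rho = 0.891 (permutation p = 1e-05 for each, adjusted 6.75e-05 and 7.714e-05), with 0.878 without the 2 farthest animals and 0.703 to 0.975 within the single groups. It followed PDIA4 with r = 0.895 and rho = 0.884 at the same permutation p values (0.882 without the 2 farthest). Over the 55 pairs of ER members the median r was 0.709 (-0.091 to 0.902), against 0.0745 over all 1081 pairs of members.

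The HSPA5 relation was broader than the ER. Of 46 relations to other members, 22 were positive and 7 negative with both adjusted p under 0.05, and the positive ones included mitochondrial HSPA9 (r = 0.849) and cytosolic HSP90AA1 (r = 0.812). The negative ones were HSPB11 (r = -0.775), HSPA12A (r = -0.705), HSPA12B (r = -0.677), HSPBP1 with SYT5 (r = -0.645), DNAJC17.1 (r = -0.550), SEC61A2 (r = -0.517) and HSPB8 (r = -0.412). Of the stress signalling members, EIF2AK3 followed HSPA5 with r = 0.750 and rho = 0.735 (adjusted permutation p = 6.75e-05 and 7.714e-05, and r = 0.715 without the 2 farthest animals). ATF4 had r = 0.468 and rho = 0.355 (adjusted permutation p = 0.0201 and 0.0789, and r = 0.349 without the 2 farthest), so that its rank correlation missed the threshold. DDIT3 had r = -0.027 with HSPA5 (adjusted permutation p = 0.926) and ATF3 had 0.252 (adjusted permutation p = 0.237) by Pearson's r. Of all 7749 other symbols tested, 14.5% had r over 0.5 with HSPA5 and 1.1% had r over 0.8, whereas 8 and 6 of the 10 other ER members did. HSPA5 also moved with measures outside the set: r was 0.624 with the hepatocyte marker sum, -0.728 with the B and plasma cell sum, -0.510 with the cholangiocyte sum and 0.378 with the log2 of library depth. Their part in the relation was not tested.

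Among the cytosolic members, HSPA8 followed HSPH1 with r = 0.899 and rho = 0.879 (permutation p = 1e-05 for each, adjusted 6.75e-05 and 7.714e-05; 0.859 without the 2 farthest animals) and HSP90AB1 with r = 0.794 and rho = 0.660 (adjusted permutation p = 0.00012 and 0.00024; 0.693 without them). Of all other symbols tested, 0.245% had r over 0.7 with HSPA8. HSP90AB1 had r = 0.802 and rho = 0.819 with HSPA5, and HSP90AA1 had r = 0.748 with HSPA8 beside its 0.812 with HSPA5. HSPA8 itself had r = 0.617 and rho = 0.582 with HSPA5 (adjusted permutation p = 0.000756 and 0.00162). The cytosolic row HSPBP1 ran the other way, with r = -0.633 to HSPA8 (rho = -0.562, adjusted permutation p = 0.00012 and 0.00128). HSPA1A followed DNAJB1 with r = 0.592 and rho = 0.404 (adjusted permutation p = 0.00419 and 0.0319), and r fell to 0.35 without LFH animal 5 and HFL/LFH animal 43, on which it largely rested. These anchors, too, moved with marker sums. For HSPA8, r was 0.468 with the endothelial sum and -0.405 with the B and plasma cell sum. For HSPA1A, r was -0.438 with the stellate cell sum and 0.411 with the hepatocyte sum. Their part was not tested.

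**Figure D4:**
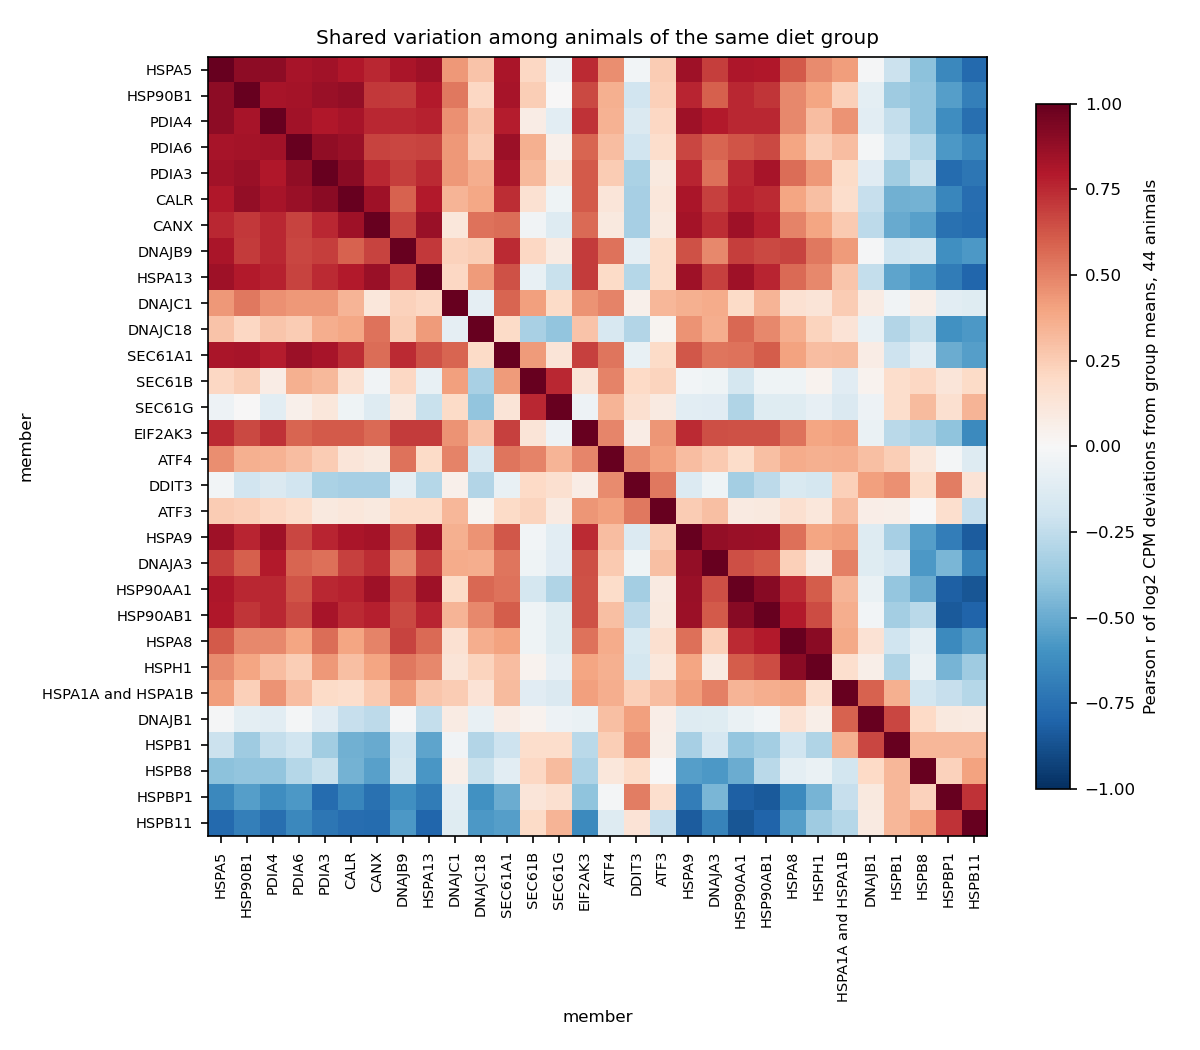
Pearson's r (colour) between members' deviations from the group mean in log2 CPM over 44 animals, for 30 members. The ER block has a median r of 0.709 over its 55 pairs, and DDIT3 stands outside it with r = -0.027 to HSPA5.

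Pathway genes that do not carry the set's symbols were counted from lists chosen with earlier results of these data known. The integrated stress response list held targets and related genes such as EIF2S1, which encodes eIF2α, and CASP12. Of its 12 tested genes (26 listed), 7 were higher and 4 lower in HFH over LFH, 6 and 4 in HFL/HFH over HFL/LFH, and 4 and 4 in HFL/HFL over HFL/LFL, with median log2 fold changes of 0.82, 0.88 and 0.27. CHAC1, a glutathione-degrading enzyme induced through ATF4, was at no more than 0.438 CPM in LFH and at 0.584 to 6.13 (median 4.43) in HFH (adjusted p = 2.36e-09), and at no more than 0.0916 CPM in HFL/LFH and at 3 to 7.10 in HFL/HFH (adjusted p = 6.41e-09). MTHFD2, a mitochondrial folate enzyme, ranged from 0 to 2.16 CPM in LFH and 2.69 to 19 in HFH (3.81, SE 0.46, adjusted p = 3.84e-09). DDIT4, an mTOR inhibitor that glucocorticoids also induce, fell by 2.57 on the log2 scale in HFH (adjusted p = 9.85e-10), and the serine and one-carbon enzymes PHGDH (-0.88) and SHMT2 (-0.60) and the gluconeogenic PCK2 (-1.07), named after their values were seen, were lower too.

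The ER quality control and ER-associated degradation list (14 of 32 tested) was mixed, with 2 higher and 5 lower, 3 and 1, and 2 and 4 in the 3 pairs. DERL3, a degradation channel protein, was at most 0.199 CPM in LFH and 0.364 to 4.49 in HFH (adjusted p = 1.05e-07), UGGT2, a glycoprotein folding sensor, gave 1.55 (adjusted p = 1.67e-05) and the oxidoreductase ERO1B -0.96 (adjusted p = 4.05e-05) in HFH over LFH. Of 13 tested genes of ER entry and glycosylation (26 listed), 2 were higher and 4 lower, 1 and 1, and 1 and 5. SRP9 of the signal recognition particle fell by 1.43 on the log2 scale in HFH (adjusted p = 1.15e-07), SSR4 gave -0.36 (adjusted p = 0.000416) and its translocon-associated partner SSR2 gave 0.40 (adjusted p = 2.38e-05).

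Of the cofactors of the cytosolic chaperones and the subunits of the CCT chaperonin (19 of 29 tested), 0 were called higher and 5 lower, 1 and 3, and 0 and 8 in the 3 pairs, and most were not called in any 1 pair. In HFH over LFH the HSP70 exchange factor BAG1 gave -0.58 (adjusted p = 0.000122), the HSP90 partner PTGES3 -0.45 (adjusted p = 0.000399) and the glucocorticoid-induced FKBP5 -1.59 (adjusted p = 0.00128). Of 10 tested mitochondrial folding and protease genes (11 listed), none was higher and 8, 8 and 6 were lower, with medians of -0.39, -0.36 and -0.29. GRPEL1, the exchange factor of HSPA9, gave -0.63 (adjusted p = 7.33e-08), and the matrix protease subunits CLPP and CLPX gave -0.57 (adjusted p = 4.59e-06) and -1.08 (adjusted p = 0.000143). For these lists, too, 49.3%, 35.9% and 37.8% of all symbols were called in the 3 pairs. The hepatocyte marker sums given above had lower medians on high fat feed in each pair, and their part in the lists was not tested.

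**Figure D5:**
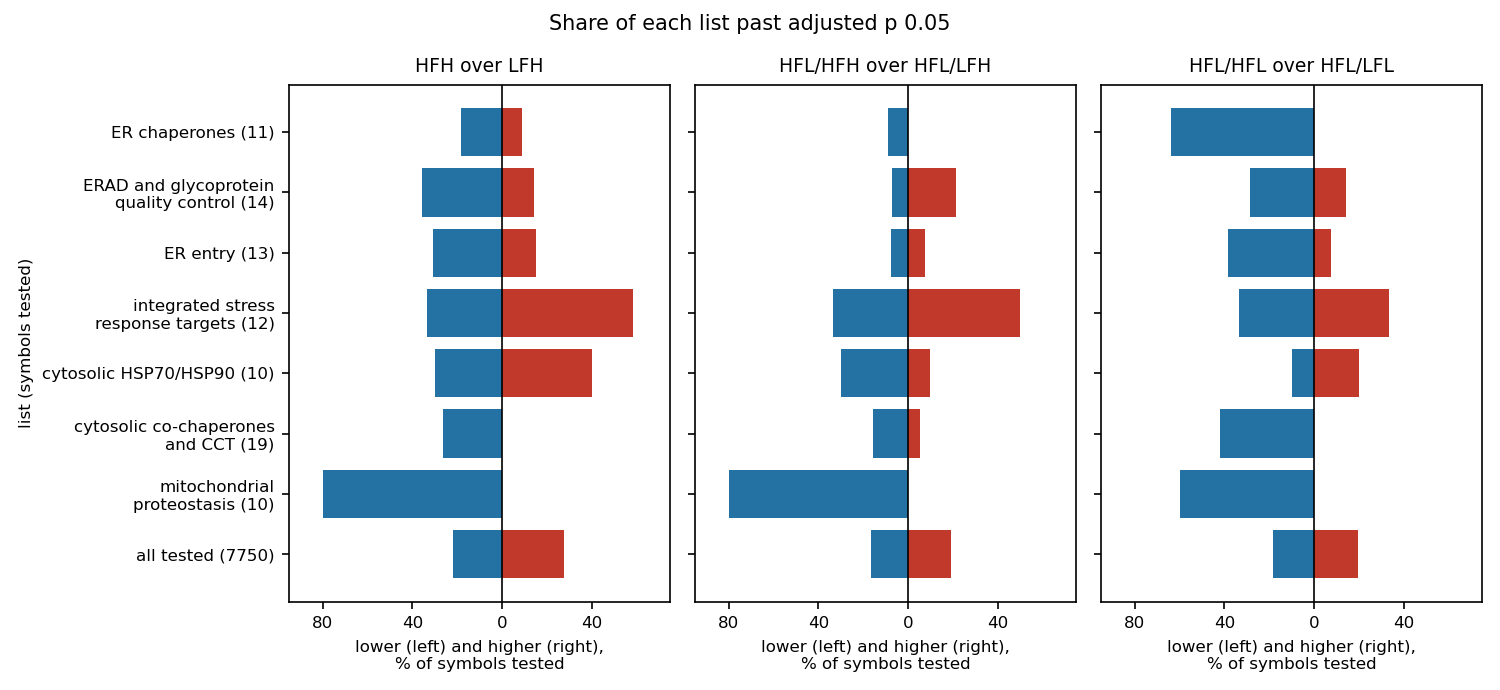
Percent of the tested ER and cytosolic HSP70 and HSP90 members and of each pathway list called higher (red, right of 0) or lower (blue, left of 0) at adjusted p under 0.05 in the 3 feed comparisons, with all 7750 tested symbols for comparison. ER members reach 7 of 11 lower in HFL/HFL over HFL/LFL, and mitochondrial folding and protease genes 8 of 10 lower in the other 2 pairs.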

How the data were processed

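Liver RNA of 44 animals, 1 library each, was analysed. The authors trimmed the reads (Trimmomatic 0.38.0), mapped them with HISAT2 2.1.0 to the guinea pig assembly Cav.Por.3.0 of Ensembl and assembled transcripts with StringTie 2.1.1. They deposited raw counts per human orthologue symbol, and how StringTie output became counts is not given in the sources used here. The authors also deposited DESeq2 variance-stabilized values on a log2-like scale, whose rows defined the set and which were used otherwise only for an alternative. Joining guinea pig genes by human symbol leaves rows with shared counts or a numbered suffix.

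The counts were fitted with edgeR 4.0.16 (TMM, quasi-likelihood, R 4.3.3) in 1 model of 6 group means over all 44 animals, for 7750 symbols with at least 200 counts in total, and p values were adjusted by Benjamini-Hochberg over all of them for each of 10 comparisons (threshold 0.05). Groups came from the diet labels. Library totals of 21133807 to 35427724 set the counting precision, and floors of 3 counts cover counting error only. CPM used TMM-scaled totals. The 146 pairs of animals within groups differed beyond counting noise (chi-square per gene 51.1 to 608), so that none was the same library sequenced again. A second library of the same animal would not be seen this way, and pairs from different groups were not compared. Labels name no batch. Euthanasia was spread over days that the labels do not give. The fits were tested on simulated counts.

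Named were a core of 33 ER stress and chaperone genes (22 tested), the 8 members with the largest change in each direction among calls of each feed comparison, the calls (or else the 3 smallest p) of the other comparisons, and at most 3 genes per pathway list by p in HFH over LFH. The members and lists were chosen with earlier results of these data known. Alternatives were other scalings (RLE, upper quartile), no filter, filterByExpr, shared counts taken once, fits of the compared groups alone, limma 3.58.1 (voom with sample weights), DESeq2 1.42.0 and leaving out each animal.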

Additional observations from a re-analysis of the deposited data

Results flagged for a closer look

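Single animals far from the rest of their group were sought for 37 members with distinct counts in 222 groups of values (Dixon's test at 95% on log2 CPM), and 10 were found. Chance alone flags about 1 in 20 groups, a share that these 10 did not exceed. High animals were HFL/HFH animal 84 for DDIT3 at 55.5 CPM (the others 30.3 to 35.5), HFL/LFL animal 49 for HSP90AB1 at 872 CPM (490 to 580), HFL/HFH animal 30 for HSPA12B at 44.7 CPM (21.4 to 26.5), HFL/HFL animal 34 for HSPA8 at 1603 CPM (749 to 1012), HFH animal 88 for HSPE1.MOB4 at 78.2 CPM (64.6 to 68.6) and HFL/HFL animal 31 for SEC61B at 98.8 CPM (79.2 to 88.4). Low animals were HFL/HFL animal 75 for ATF4 at 358 CPM (417 to 465), HFL/LFH animal 33 for DNAJC12 at 72.9 CPM (104 to 121) and for HSPA8 at 374 CPM (795 to 1125), and HFH animal 9 for DNAJC18 at 0.42 CPM (1.38 to 3.54). HFL/LFH animal 33 was the animal found more than once.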

How the results depend on the processing

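No paired analysis was possible because no animal number occurs in more than 1 group. In HFL/HFL over HFL/LFL, leaving out HFL/LFL animals 49 and 53 together, chosen after seeing the data, took the members called from 24 to 11 (4 higher, 7 lower), and all symbols called from 37.8% to 27.8%. The calls of HFL/HFL over HFH went from 0 to 4 with limma voom (HSP90AA1, HSPBP1, SEC61B and SEC61G), those of HFL/LFH over LFH from 0 to 1 with upper quartile scaling and to 1 with DESeq2, and that of HFL/LFL over LFH from 1 to 0 with only the groups compared and to 0 without animals 49 and 53, while limma voom made 1 call there, DNAJC6 in place of SEC61A1. Leaving out each animal in turn gave 17 to 21 calls in HFH over LFH, 10 to 15 in HFL/HFH over HFL/LFH (10 without HFL/LFH animal 3), 17 to 26 in HFL/HFL over HFL/LFL (17 without HFL/LFL animal 13), 0 to 1 in HFL/HFL over HFH, 0 to 1 in HFL/LFH over LFH (1 without LFH animal 5) and 0 to 3 in HFL/LFL over LFH, and 0 to 0 in HFL/LFL over HFL/LFH, HFL/HFL over HFL/HFH, HFL/HFH over HFH and the interaction. Of 53 called pairs of a named member and a comparison, 30 were called in every leave-one-out fit, and of 62 not called, 12 were called in at least 1. No named value reversed its direction while called. The causes were not tested. Depth limits DNAJA4, CHAC1 and DERL3, which were at most 0.763, 0.438 and 0.199 CPM in LFH.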
